A study of Mus with 6 samples.

Results

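The transcripts described here are those of the mitochondrial genome in mouse brain tissue labelled as basolateral amygdala, a region central to fear memory. They are the 37 genes that the deposited table of 54532 genes places on the chromosome named MT, by a rule that reads the chromosome label and no measured value. Of these, 13 are protein-coding (mRNA), 2 are ribosomal RNA (rRNA) genes and 22 are transfer RNA (tRNA) genes. RNA sequencing compared 3 samples labelled as wild type (WT) with 3 labelled CNTNAP4-KO (KO). Cntnap4 encodes a neurexin-related adhesion protein of neurons, and the series design writes the knockout as CNTNAP4-/-. Libraries are written WT1 to WT3 and KO1 to KO3, and all 6 are labelled male. The sources used here give no age, strain, treatment or deleted part of the gene for these samples. Nothing beyond a number tells the mice of a group apart, so p-values measure only how these samples spread, which may be technical.

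Libraries held 17647556 to 20813211 reads in genes. Cntnap4 measured 2.03, 3.59 and 4.91 FPKM (fragments per kilobase, a level corrected for gene length and sequencing depth) in WT1 to WT3 and 1.61, 1.00 and 1.48 FPKM in KO1 to KO3. The groups did not overlap, but 10.8% of all tested genes were likewise lower in every KO library. In the test described below Cntnap4 did not pass (limma adjusted p = 0.220). The library labelled KO1 carried Xist RNA, which coats the inactive X, at 43.0 FPKM and 0 reads on 4 Y-linked genes, against at most 0.0346 FPKM of Xist and at least 2831 such reads in the other libraries, which goes against its male label. As a check of the tissue label, the glutamatergic marker Slc17a7, abundant in basolateral amygdala projection neurons, measured 5.37 to 6.42 FPKM in WT and 19.1 to 94.3 FPKM in KO, and Slc17a6, the other common glutamate transporter gene, 13.5 to 17.0 FPKM in WT and 5.40 to 15.3 FPKM in KO. The GABAergic markers Gad1 and Gad2 measured 84.0 to 122 FPKM over the 6 libraries. Both were higher than Slc17a7 and Slc17a6 in every library except KO2, where Slc17a7, at 94.3 FPKM, stood above both. All values therefore describe the pieces as dissected, and in such bulk tissue fewer cells of a type and less RNA per cell cannot be told apart.

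Mitochondria keep a small circular genome of their own, which encodes core subunits of the respiratory chain together with the rRNAs and tRNAs needed to translate them inside the organelle. Both strands are transcribed into long polycistronic precursors, and the tRNAs that lie between the other genes are cut out to release them. Most mRNAs then receive a short poly(A) tail. In neurons these transcripts are abundant, since synaptic signalling depends on mitochondrial ATP.

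Mitochondrial transcripts were among the most abundant RNAs of the tissue. By mean FPKM over the 6 libraries, 9 of the 10 highest genes were mitochondrial, with mt-Co1, which encodes the catalytic subunit of cytochrome c oxidase, at rank 1. Together the 37 genes took 6.90, 8.14 and 3.42% of reads in WT1 to WT3 and 6.19, 5.63 and 6.28% in KO1 to KO3. Their 95% exact Clopper-Pearson intervals were 6.89 to 6.91%, 8.13 to 8.15% and 3.41 to 3.43% in WT and 6.18 to 6.20%, 5.62 to 5.64% and 6.27 to 6.29% in KO, and cover counting error only. The groups overlapped, because WT1 and WT2 stood above every KO library and WT3 below all of them. The mean was 6.15 ± 2.45% in WT and 6.03 ± 0.352% in KO (SD, n = 3 each). KO minus WT was -0.121 percentage points over all libraries and -1.49 percentage points without WT3. Leaving out each library in turn gave -1.49 to 0.873 percentage points.

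**Figure D1:**
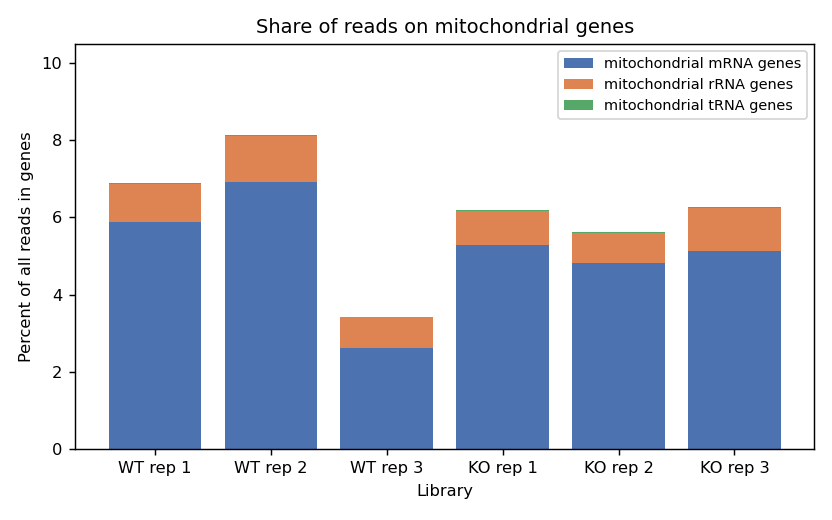
Percent of all reads in genes (vertical axis) that fell on mitochondrial mRNA, rRNA and tRNA genes (stacked bars) in each of the 6 libraries (horizontal axis). WT3 is lowest at 3.42%, WT2 highest at 8.14%, and the tRNA part is too thin to see.

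Most of these reads came from mRNA genes. They made up 76.5 to 85.6% of mitochondrial reads, rRNA genes 14.1 to 23.1% and tRNA genes 0.328 to 0.413%. In read numbers, tRNA genes held 4624, 5118 and 2941 reads in WT1 to WT3 and 4722, 3831 and 3635 in KO1 to KO3. Per the labels' protocols the libraries were made with an mRNA kit. Comparisons between the classes therefore describe such libraries only, and how evenly the kit captured the classes was not tested.

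One stretch of the mitochondrial genome needs care before any level is read. The nuclear genome of the reference strain carries a nearly identical copy of it on chromosome 1, annotated as 7 unprocessed pseudogenes between 24611535 and 24616197 on the minus strand (GRCm38). By the spacing of these gene models the copy corresponds to positions 6381 to 11043 of the mitochondrial genome. For example, Gm28661 (24614885 to 24615565) lines up with mt-Co2 from its first base, and Gm29216 (24615706 to 24616197) ends with mt-Co1 at position 6872. Wholly inside lie 6 mRNA genes (mt-Co2, mt-Atp8, mt-Atp6, mt-Co3, mt-Nd3 and mt-Nd4l) and 5 tRNA genes (mt-Ts1, mt-Td, mt-Tk, mt-Tg and mt-Tr). These 11 genes span 21.6% of the summed mitochondrial gene length but held 0.528 to 0.656% of mitochondrial reads.

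Levels of the mRNA genes wholly inside that stretch and of the others did not overlap. Over the 6 libraries, the 7 mRNA genes outside or partly outside it measured 661 to 17075 FPKM, and the 6 inside it 0.451 to 309 FPKM. The borders of the stretch fall within mt-Co1 and mt-Nd4, so levels of whole genes cannot place the drop. Mean levels were 13554 FPKM for mt-Co1 and 133 FPKM for the adjacent mt-Co2, whose protein is another core subunit of the same enzyme. At the other end, mt-Nd4, with most of its length inside, averaged 2970 FPKM, and the adjacent mt-Nd4l 64.9 FPKM. The chromosome 1 gene models held 2286 to 7043 reads in all. The share of a pair's reads that were counted on the copy varied between genes. It was 29.5 to 56.1% for mt-Atp6 and Gm10925, 28.8 to 51.2% for mt-Co2 and Gm28661, 26.4 to 41.3% for mt-Co3 and Gm28437 and 14.4 to 37.0% for mt-Nd4l and Gm10222. For mt-Nd3 and Gm28438 it was lower, at 4.10 to 9.74%. For the genes only partly copied it was 0.0901 to 0.205% (mt-Co1 and Gm29216) and 0.458 to 1.76% (mt-Nd4 and Gm28439). How reads that match both places were counted is not known from the sources used here. The levels of the 11 genes inside are therefore uncertain, and parts of mt-Co1 (31.8% of its length) and mt-Nd4 (63.6%) also lie within it. Totals and shares of mitochondrial reads, above and below, may likewise leave out an unknown number of reads from this stretch.

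**Figure D2:**
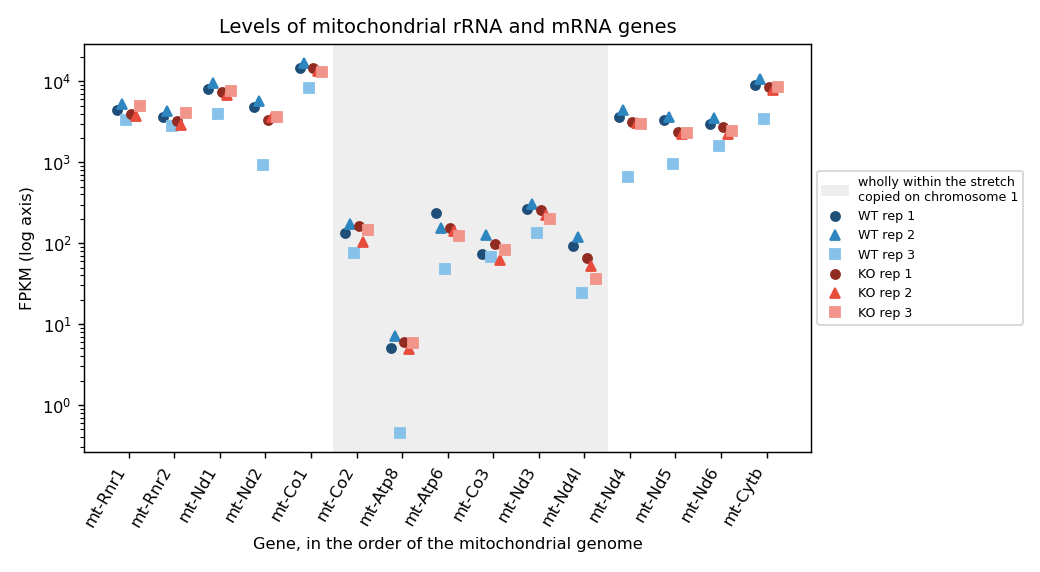
FPKM on a log axis (vertical) of the rRNA and mRNA genes in genome order (horizontal), 1 point per library, circles, triangles and squares being replicates 1 to 3 of WT (blue) and KO (red). The shaded genes lie wholly within the stretch copied on chromosome 1 and sit at 309 FPKM or below, while the others reach 17075 FPKM.

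Between the groups, no mitochondrial gene passed the adjusted threshold. The test was limma on log2(FPKM + 0.5) over the 16155 genes whose mean reached 0.5 FPKM, with Benjamini-Hochberg adjusted p below 0.05, and 33 of the 37 mitochondrial genes entered it. None of the 33 entered through the level of 1 group only. Among all tested genes 0.0124% passed, and 0 of 33 mitochondrial genes did. At an unadjusted p below 0.05 1 mitochondrial gene was higher and 10 were lower in KO, all of them tRNA genes, and voom on recovered reads gave 0 passing genes with 1 higher and 10 lower at that level. Of all tested genes 8.36% were higher and 6.85% lower by the same unadjusted measure. Each log2 difference below is the KO mean less the WT mean of log2(FPKM + 0.5), with its standard error.

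The 13 mRNA genes had a median log2 difference of 0.11, beside 0.0067 over all genes tested, with 10 positive and 3 negative. That direction rested on WT3. Without it the median was -0.36 and all 13 differences were negative, 6 of them at an unadjusted p below 0.05 and 0 past the adjusted threshold (lowest adjusted p = 0.306, limma). In that fit 6.71% of all tested genes were lower at that unadjusted level, and their median was 0.011. WT3 was the lowest library for 12 of the 13 genes, so leaving it out raises the WT mean and narrows the WT spread by construction. Leaving out WT2, the highest library for 12 of the 13, gave a median of 0.37 with all 13 differences positive. Leaving out WT1 gave 0.24 with 11 positive and 2 negative. Without KO1, whose sex markers go against its label, the median was 0.059. For 12 of the 13 genes every KO library lay above WT3 and below the higher of WT1 and WT2, and for 8 of the 13 every KO library lay below both.

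The products of the 7 complex I genes form the proton-pumping membrane arm of NADH dehydrogenase. Those not wholly inside the copied stretch averaged from 2458 FPKM (mt-Nd5) to 7167 FPKM (mt-Nd1) over the 6 libraries. Inside it, mt-Nd3 averaged 231 FPKM and mt-Nd4l 64.9 FPKM, levels that the chromosome 1 copy makes uncertain. mt-Nd1 (MT 2751 to 3707, plus strand) measured 7935, 9418 and 3977 FPKM in WT1 to WT3 and 7325, 6852 and 7495 FPKM in KO1 to KO3. WT3 was lowest and the KO libraries lay between it and the other WT libraries, and the log2 difference was 0.11 ± 0.31 (limma adjusted p = 0.890). For mt-Nd2 (MT 3914 to 4951, plus strand) the values were 4882, 5683 and 918 FPKM in WT1 to WT3 and 3307, 3649.7 and 3648 FPKM in KO1 to KO3. Here WT3 stood at 17.4% of the mean of the other WT libraries and the KO libraries at 62.6 to 69.1%. mt-Nd4 (MT 10167 to 11544, plus strand) measured 3614, 4359 and 661 FPKM in WT1 to WT3 and 3119, 3082 and 2984 FPKM in KO1 to KO3, again with WT3 far below the rest. mt-Nd5 (MT 11742 to 13565, plus strand) measured 2624 ± 1459 FPKM in the WT group against 2292 ± 81.7 FPKM in the KO group (SD, n = 3 each), log2 0.027 ± 0.49, and -0.59 without WT3.

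mt-Nd6 (MT 13552 to 14070, minus strand) is the only mRNA gene encoded on the minus strand and shares 14 bases with mt-Nd5 on the opposite strand. It measured 2936, 3476 and 1585 FPKM in WT1 to WT3 and 2699, 2210.4 and 2429 FPKM in KO1 to KO3. Whether counting used strand is not known, so reads of the opposite precursor cannot be told apart from its own. Relative to mt-Nd5 per length, its level was 0.895, 0.955 and 1.66 times in WT1 to WT3 and 1.14, 1.00 and 1.05 times in KO1 to KO3, with WT3 again apart. Both remaining complex I genes lie in the copied stretch. mt-Nd3 measured 236 ± 91.9 FPKM in the WT group against 225 ± 28.3 FPKM in the KO group and mt-Nd4l 78.2 ± 48.6 FPKM in the WT group against 51.7 ± 14.8 FPKM in the KO group (SD, n = 3 each), and the groups overlapped for both.

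Cytochrome b, the single mitochondrially encoded subunit of complex III, comes from mt-Cytb (MT 14145 to 15288, plus strand). The gene measured 8964, 10620.2 and 3383 FPKM in WT1 to WT3 and 8427, 7860.1 and 8621 FPKM in KO1 to KO3, log2 0.28 ± 0.41 (limma adjusted p = 0.785). WT3 was at 34.5% of the mean of the other WT libraries, and without it the log2 difference was -0.23.

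Cytochrome c oxidase, complex IV, takes its 3 core subunits from mt-Co1, mt-Co2 and mt-Co3. mt-Co1 (MT 5328 to 6872, plus strand) measured 14699.7, 17075 and 8269 FPKM in WT1 to WT3 and 14708, 13371 and 13202 FPKM in KO1 to KO3. Its log2 difference of 0.11 ± 0.27 was smaller than its standard error (limma adjusted p = 0.881). mt-Co2 measured 128 ± 49.5 FPKM in the WT group against 138 ± 31.4 FPKM in the KO group and mt-Co3 88.2 ± 31.7 FPKM in the WT group against 80.6 ± 18.6 FPKM in the KO group (SD, n = 3 each), values that the chromosome 1 copy makes uncertain. KO2 was the lowest library for mt-Co3, the only mRNA gene of the 13 for which WT3 was not lowest.

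For ATP synthase, complex V, the genome encodes the proton channel subunit a (mt-Atp6) and the small subunit mt-Atp8, whose reading frames share 43 bases. mt-Atp6 measured 234, 154 and 48.4 FPKM in WT1 to WT3 and 156, 139.9 and 122 FPKM in KO1 to KO3. mt-Atp8 had the lowest level of all mRNA genes, at 19, 26 and 2 reads in WT1 to WT3 and 23, 18 and 21 in KO1 to KO3. Its log2 difference of 0.82 ± 0.73 (limma adjusted p = 0.620) was -0.10 without WT3. Both genes lie in the copied stretch.

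**Figure D3:**
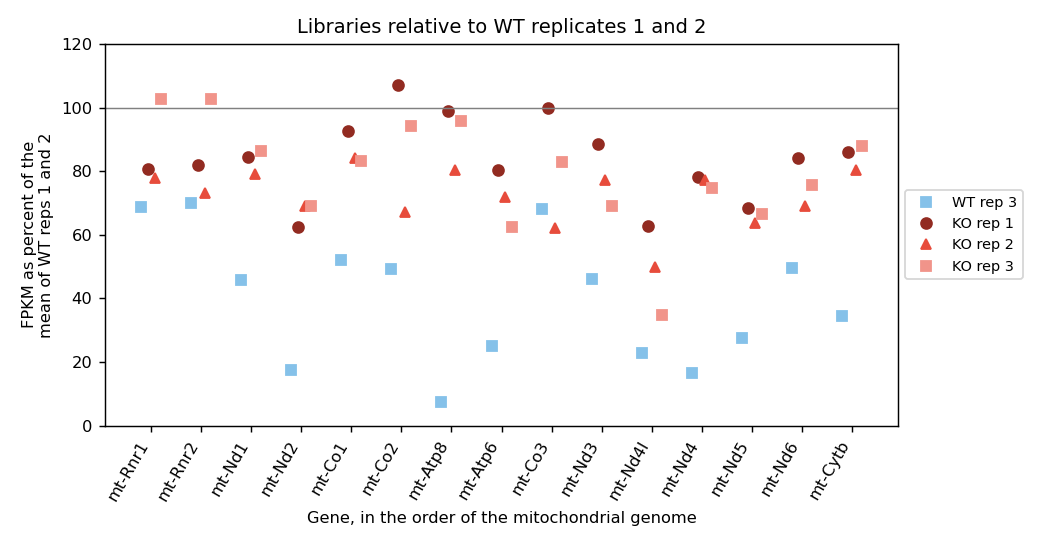
Level of each rRNA and mRNA gene in WT3 and the 3 KO libraries as percent of the mean of WT1 and WT2 (vertical axis, FPKM ratio), in genome order (horizontal axis). WT3 (blue squares) lies between 7.43% for mt-Atp8 and 70.0% for mt-Rnr2, below every KO library for each gene but mt-Co3.

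WT3 differed from the other WT libraries unevenly from gene to gene. Among the 7 mRNA genes not wholly inside the copied stretch, its level ranged from 16.6% (mt-Nd4) to 52.0% (mt-Co1) of the mean of WT1 and WT2, with a median of 34.5%. The medians of the KO libraries were 84.2, 77.3 and 75.8% for replicates 1 to 3. As a ratio that does not depend on library scaling, mt-Nd2 over mt-Nd1 per length was 0.615, 0.603 and 0.231 in WT1 to WT3 and 0.451, 0.533 and 0.487 in KO1 to KO3. Likewise, mt-Nd4 over mt-Cytb was 0.403, 0.410 and 0.195 in WT and 0.370, 0.392 and 0.346 in KO. Both ratios set WT3 apart, whereas WT1 and WT2 lay within a narrow range of each other.

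Both rRNA genes, which encode the RNAs of the small (mt-Rnr1) and large (mt-Rnr2) subunits of the mitochondrial ribosome, showed smaller spreads. mt-Rnr1 (MT 70 to 1024, plus strand) measured 4436, 5249 and 3328 FPKM in WT1 to WT3 and 3906, 3773 and 4966 FPKM in KO1 to KO3, and mt-Rnr2 (MT 1094 to 2675, plus strand) 3585, 4346 and 2776 FPKM in WT1 to WT3 and 3255, 2894 and 4074 FPKM in KO1 to KO3. The groups overlapped for each, with log2 differences of -0.027 ± 0.20 and -0.057 ± 0.20 (limma adjusted p = 0.961 and 0.918). The pair kept a nearly fixed proportion, mt-Rnr2 over mt-Rnr1 per length being 0.823 ± 0.0135 in WT and 0.807 ± 0.0350 in KO (SD, n = 3 each). Against the mRNAs, rRNA reads numbered 0.169, 0.174 and 0.302 per mRNA read in WT1 to WT3 and 0.167, 0.165 and 0.219 in KO1 to KO3. WT3 and KO3 were the libraries richest in rRNA relative to mRNA.

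The tRNA genes showed another pattern, with most at lower values in KO. Of 22 genes 18 were tested, of which 15 had a negative and 3 a positive log2 difference, and the median was -0.72 beside 0.0067 over all genes tested. For 10 of 18 every KO library lay below every WT library, where 10.8% of all tested genes did so, and for 0 every KO library lay above (11.8% of all tested genes). An unadjusted p below 0.05 was reached by 10 lower and 1 higher tRNA genes. The lowest limma adjusted p among them was 0.184, for mt-Tq, which held only 3 to 15 reads per library, and 0 passed. The median was -0.84 without WT3, -0.93 without KO1 and -0.55 without KO3, the library with the lowest value for 11 of the 18. Neighbouring tRNA genes are cut from shared precursors, so these counts are not over independent units.

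**Figure D4:**
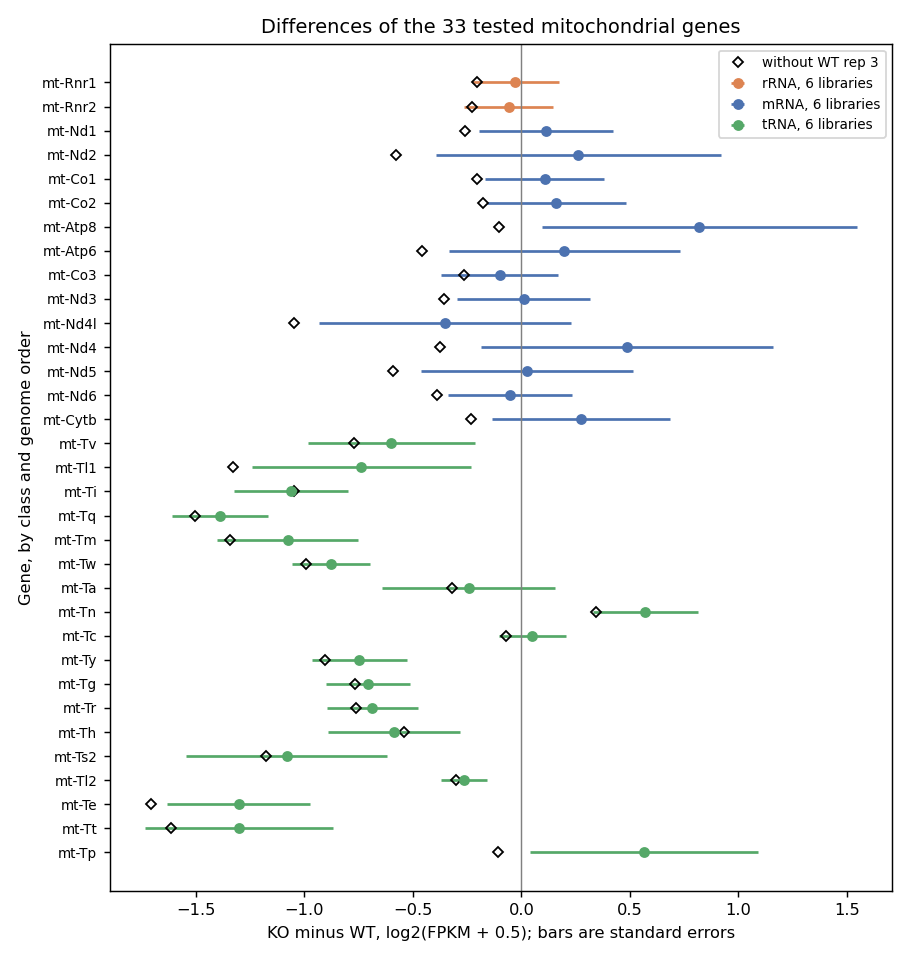
Log2 difference, KO minus WT, of the 33 tested mitochondrial genes (horizontal axis, bars are standard errors) by class and genome order (vertical axis). Open diamonds give the value without WT3, which moves the mRNA genes from a median of 0.11 to -0.36, while the tRNA median goes from -0.72 to -0.84.

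A group of 3 tRNA genes, all on the minus strand, held most tRNA reads and did not show the lower values. mt-Tp, the proline tRNA gene (MT 15356 to 15422, minus strand), measured 1435, 1625 and 379 FPKM in WT1 to WT3 and 1468, 1379 and 1412 FPKM in KO1 to KO3. WT3 was far below the others, and the log2 difference of 0.56 ± 0.53 became -0.11 without it. mt-Tc, for cysteine (MT 5192 to 5257, minus strand), measured 588 ± 91.5 FPKM in the WT group against 609 ± 90.5 FPKM in the KO group (SD, n = 3 each), log2 0.051 ± 0.16. mt-Tn, for asparagine (MT 5089 to 5159, minus strand), measured 436, 502 and 292 FPKM in WT1 to WT3 and 763, 493 and 558 FPKM in KO1 to KO3. The groups overlapped, and its log2 difference of 0.57 ± 0.24 missed the threshold (limma adjusted p = 0.328) and was 0.34 without WT3 and 0.39 without KO1. Together the 3 genes took 58.0 to 82.5% of tRNA reads.

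mt-Te, the glutamate tRNA gene between mt-Nd6 and mt-Cytb (MT 14071 to 14139, minus strand), had the lowest KO-to-WT ratio among the tRNA genes with over 100 reads in some library. It measured 323, 358 and 146 FPKM in WT1 to WT3 and 104, 116 and 92.4 FPKM in KO1 to KO3, which were 411, 444 and 219 WT reads and 135, 145 and 113 KO reads. Every KO library lay below every WT library, and the KO mean was 37.8% of the WT mean, log2 -1.30 ± 0.33 (limma adjusted p = 0.210). Relative to its neighbour mt-Cytb, there were 2.17, 2.03 and 2.60 mt-Te reads per 1000 mt-Cytb reads in WT1 to WT3 and 0.745, 0.891 and 0.647 in KO1 to KO3. On this ratio WT3 lay with the other WT libraries. Per 1000 reads of mt-Nd6, the gene on its other side and on the same strand, the numbers were 14.6, 13.7 and 12.2 in WT and 5.13, 6.98 and 5.06 in KO. Those groups did not overlap either.

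Other tRNA genes with many reads had smaller gaps. mt-Tw, for tryptophan (MT 4950 to 5016, plus strand), measured 111, 142 and 98.9 FPKM in WT1 to WT3 and 76.2, 63.5 and 51.4 FPKM in KO1 to KO3, log2 -0.88 ± 0.18 (limma adjusted p = 0.194). mt-Ty, for tyrosine (MT 5260 to 5326, minus strand), measured 155, 191 and 123 FPKM in WT1 to WT3 and 121, 77.5 and 81.7 FPKM in KO1 to KO3, log2 -0.75 ± 0.22 (limma adjusted p = 0.230). The groups did not overlap for either gene. mt-Tl2, for leucine (MT 11671 to 11741, plus strand), differed less, with 181 ± 18.9 FPKM in the WT group against 151 ± 12.4 FPKM in the KO group (SD, n = 3 each), again without overlap. The second leucine tRNA gene, mt-Tl1 (MT 2676 to 2750, plus strand), lies between mt-Rnr2 and mt-Nd1 and holds the binding site of a transcription termination factor. It measured 183, 199 and 55.2 FPKM in WT1 to WT3 and 96.4, 84.7 and 52.7 FPKM in KO1 to KO3, with WT3 among the KO libraries. Its log2 difference of -0.74 ± 0.51 (limma adjusted p = 0.523) was -1.33 without WT3, -0.47 without WT1, -0.41 without WT2 and -0.48 without KO3. Per 1000 reads of mt-Nd1 it had 1.81, 1.65 and 1.09 reads in WT1 to WT3 and 1.03, 0.969 and 0.551 in KO1 to KO3, without overlap.

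Against the neighbouring mRNA, these other tRNA genes gave mixed results. Per 1000 reads of mt-Co1, mt-Ty had 0.456, 0.485 and 0.645 reads in WT against 0.356, 0.251 and 0.268 in KO, without overlap. For mt-Tw per 1000 reads of mt-Nd2 the values were 1.47, 1.61 and 6.95 in WT against 1.49, 1.12 and 0.909 in KO, and the groups overlapped. mt-Tl2 had 2.00, 2.17 and 7.02 reads per 1000 of mt-Nd5, which follows it, in WT against 2.71, 2.50 and 2.45 in KO, so that the KO libraries lay above WT1 and WT2 and below WT3. Its numbers per 1000 reads of mt-Nd4 were 2.41, 2.40 and 13.4 in WT against 2.72, 2.37 and 2.51 in KO, with overlap. mt-Nd2, mt-Nd4 and mt-Nd5, the denominators here, were low in WT3, where these ratios were highest. mt-Tp per 1000 reads of mt-Cytb had 9.38, 8.96 and 6.56 in WT against 10.2, 10.3 and 9.59 in KO, higher in every KO library.

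The other 14 tRNA genes, named here after their values were seen, held 335, 348 and 337 reads in all in WT1 to WT3 and 235, 211 and 112 in KO1 to KO3. Below 100 reads per library, mt-Tq (glutamine) had 15, 13 and 13 reads in WT against 5, 6 and 3 in KO, and mt-Ti (isoleucine), which overlaps it by 3 bases on the opposite strand, had 20, 28 and 29 in WT against 15, 13 and 7 in KO. mt-Ts2 (serine) had 62, 57 and 58 reads in WT against 45, 35 and 11 in KO. mt-Tm (methionine) had 53, 72 and 42 reads in WT against 23, 35 and 17 in KO. For mt-Tq, mt-Ti and mt-Ts2 the groups did not overlap in FPKM, and they overlapped for mt-Tm.

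mt-Tt (threonine) had 18, 10 and 8 reads in WT against 6, 5 and 2 in KO. Within the copied stretch, mt-Tg (glycine) had 54, 49 and 54 reads in WT against 43, 25 and 25 in KO, and mt-Tr (arginine) 48, 39 and 44 against 27, 33 and 18. These 3 were lower in every KO library in FPKM, whereas the remaining tested genes overlapped. Of these, mt-Th (histidine) had 56, 66 and 80 reads in WT against 60, 50 and 24 in KO, mt-Ta (alanine) 6, 6 and 6 against 8, 6 and 2 and mt-Tv (valine) 2, 7 and 3 against 2, 2 and 2. Genes at under 10 reads per library carry too few reads for a difference to be read. The 4 untested genes were mt-Tf (phenylalanine), mt-Ts1 (serine), mt-Td (aspartate) and mt-Tk (lysine). mt-Tf had 0 reads in every library, which allows up to 2.03 to 2.49 FPKM at 3 reads, and the other 3 had 0 or 1 read per library.

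Shares of mitochondrial reads do not depend on library scaling and gave a partly different set of genes. Of the 18 tested tRNA genes, 9 had fewer reads per 10000 mitochondrial reads in every KO library than in every WT library, beside 3.01% of all tested genes. For 1, mt-Tp, every KO library was higher (all tested genes, 0.947%). Nearly all of those tested genes are nuclear, and their values on this scale carry the low mitochondrial total of WT3, so these shares are no like-for-like measure for mitochondrial genes. Both measures, FPKM and share, placed 7 genes lower without overlap, namely mt-Te, mt-Ti, mt-Tq, mt-Ts2, mt-Tt, mt-Tw and mt-Ty. FPKM alone did so for 3 (mt-Tg, mt-Tl2 and mt-Tr) and share alone for 2 (mt-Tl1 and mt-Tm). Both measures rest on the same tRNA reads, so a gene placed lower by both has no separate support. The low mitochondrial total of WT3 also raises the tRNA shares of that library. mt-Te took 3.24, 3.07 and 3.07 reads per 10000 in WT1 to WT3 and 1.15, 1.38 and 1.02 in KO1 to KO3. mt-Tp took 14.0, 13.5 and 7.75 in WT and 15.8, 15.9 and 15.1 in KO. Among the mRNA and rRNA genes the groups overlapped for all but mt-Cytb, which took 1493, 1509 and 1181 reads per 10000 in WT and 1546, 1547 and 1577 in KO.

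**Figure D5:**
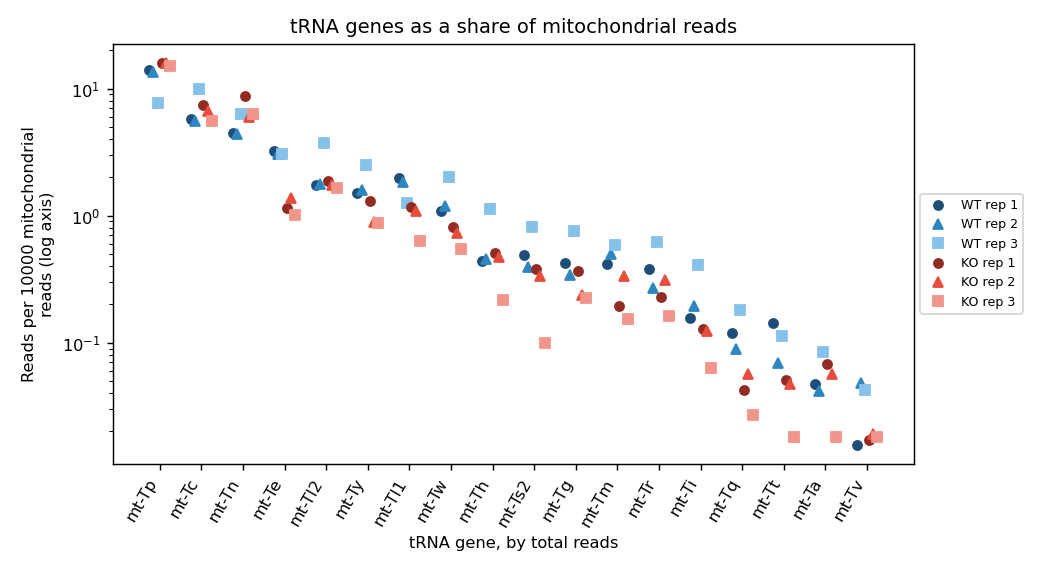
Reads per 10000 mitochondrial reads on a log axis (vertical) of the 18 tested tRNA genes ordered by total reads (horizontal), 1 point per library, WT in blue and KO in red. For mt-Te the WT libraries sit at 3.07 to 3.24 and the KO libraries at 1.02 to 1.38.

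By strand, the 14 tRNA genes of the plus strand took 7.30, 7.09 and 11.5 reads per 10000 mitochondrial reads in WT1 to WT3 and 5.75, 5.44 and 3.79 in KO1 to KO3, without overlap. The 8 of the minus strand, which include mt-Tp, mt-Tc and mt-Tn, took 29.2, 28.2 and 29.8 in WT against 34.5, 31.0 and 29.0 in KO, with overlap. In total the tRNA genes did not differ in share beyond the spread, at 0.377 ± 0.0316% of mitochondrial reads in WT and 0.365 ± 0.0373% in KO (SD, n = 3 each). A tRNA is shorter than the fragments usual in such libraries, so reads counted on a tRNA gene may come from the mature tRNA, from a precursor or from a neighbour's end, and these cannot be told apart here.

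Levels of some cell type markers also differed between these groups, although 0 genes of the lists in this paragraph passed the adjusted threshold (lowest limma adjusted p = 0.184). Counts of 1 or 2 genes of a list are too small to set apart from the shares over all tested genes. Among all tested genes 10.8% were lower and 11.8% higher in every KO library, and the counts below stand beside those shares. Of 5 oligodendrocyte markers (Mbp, Mog, Mag, Opalin and Cldn11) 4 were lower in every KO library, and the list summed to 668 to 885 FPKM in WT and 465 to 701 FPKM in KO. Oligodendrocyte precursor markers were lower in every KO library for 3 of 6 and summed to 136 to 178 FPKM in WT and 87.4 to 126 FPKM in KO. For microglia this held for 2 of 6, with sums of 187 to 203 FPKM in WT and 161 to 199 FPKM in KO. The choroid plexus and ependyma list had 1 of 4 tested genes so placed, Ttr, with means of 27.1 FPKM in WT and 7.78 FPKM in KO. Its 6 genes, Ttr included, summed to 36.5 to 40.6 FPKM in WT and 11.3 to 31.1 FPKM in KO. The other tested genes of that list overlapped, with log2 differences of 0.10 for Clic6, 0.028 for Kl and -0.15 for Foxj1. The endothelial list had 1 of 6 so placed, with 97.0 to 121 FPKM in WT and 95.1 to 113 FPKM in KO. Higher in every KO library were 5 of 6 excitatory neuron markers, with sums of 24.7 to 27.0 FPKM in WT and 44.1 to 130.4 FPKM in KO, the highest in KO2. Blood genes stood higher for 2 of 5 and summed to 58.9 to 76.1 FPKM in WT and 77.5 to 144 FPKM in KO. Inhibitory neuron markers had 1 lower and 1 higher of 6 without overlap and summed to 593 to 713 FPKM in WT and 641 to 755 FPKM in KO, and astrocyte markers had 0 of 6 apart, with 325 to 346 FPKM in WT and 333 to 369.8 FPKM in KO. A list of 5 long noncoding RNAs held mostly in the nucleus had 0 apart and summed to 340.2 to 459 FPKM in WT and 352 to 391 FPKM in KO. No gene of these lists was at 0 in all libraries. The part of these differences in the tRNA values was not tested.

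The nuclear genes that build and run this system gave no passing gene in limma either. In the lists below 0 genes passed the adjusted threshold in each direction, medians are log2 differences, and counts in parentheses are genes at an unadjusted p below 0.05. Those counts stand beside 8.36% higher and 6.85% lower among all tested genes, and many of them are near or below these shares. Genes that replicate and package mitochondrial DNA gave a median of -0.070 over 16 genes (0 higher, 0 lower), and the transcription machinery gave a median of -0.0045 over 9 genes (0 higher, 0 lower). In the latter, Polrmt, the mitochondrial RNA polymerase, measured 6.21 ± 0.777 and 5.73 ± 0.356 FPKM in WT and KO (SD, n = 3 each), and Tfb2m, its initiation factor, 6.36 ± 0.359 and 7.15 ± 0.366 FPKM. The genes of RNA processing, polyadenylation and decay gave a median of -0.033 over 21 genes (1 higher, 0 lower). Trmt10c, a subunit of the enzyme that cuts the leader end of mitochondrial tRNAs, measured 4.37, 4.96 and 4.75 FPKM in WT1 to WT3 and 3.97, 3.97 and 4.23 FPKM in KO1 to KO3, log2 -0.19 ± 0.083 (limma adjusted p = 0.345). The groups did not overlap for Trmt10c. In that list 3 of 21 genes were lower and 2 higher without overlap, near the 10.8% lower and 11.8% higher among all tested genes. Any part of Trmt10c in the tRNA values was not tested. Rexo2, a mitochondrial RNA-degrading enzyme, had a log2 difference of 0.20 ± 0.082.

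Enzymes that modify mitochondrial tRNA and rRNA gave a median of 0.00059 over 21 genes (1 higher, 1 lower). The rRNA methyltransferase gene Mrm1 measured 4.70 ± 0.298 and 4.05 ± 0.0132 FPKM in WT and KO (SD, n = 3 each). Aminoacyl-tRNA synthetases, which load tRNAs, gave a median of -0.026 over 23 genes (2 higher, 0 lower). Kars, the lysine enzyme shared with the cytosol, measured 16.1 ± 0.979 and 19.8 ± 1.46 FPKM and Pars2, the mitochondrial proline enzyme, 2.53 ± 0.202 and 3.28 ± 0.296 FPKM. Translation factors gave a median of -0.015 over 12 genes (0 higher, 0 lower), and regulators of mitochondrial biogenesis a median of -0.057 over 10 genes (0 higher, 1 lower). Among the latter, the nuclear receptor gene Esrrg measured 8.45 ± 0.354 and 6.54 ± 0.730 FPKM, log2 -0.35 ± 0.10 (limma adjusted p = 0.219).

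Nuclear subunits that assemble with the mitochondrially encoded proteins had small positive or near-zero medians. Complex I gave a median of 0.15 over 36 genes (8 higher, 1 lower), complex III a median of 0.0094 over 9 genes (2 higher, 0 lower), complex IV a median of 0.21 over 11 genes (2 higher, 0 lower) and complex V a median of 0.042 over 14 genes (1 higher, 0 lower). Complex II, which has no mitochondrially encoded subunit, gave a median of -0.060 over 4 genes (0 higher, 0 lower). Ndufa1, an accessory subunit of complex I, measured 83.6 ± 19.3 and 138 ± 9.53 FPKM in WT and KO (SD, n = 3 each), Cox7c of complex IV 142 ± 9.73 and 194 ± 20.0 FPKM and Atp5k of complex V 47.8 ± 10.3 and 93.4 ± 17.1 FPKM. For each of these 3, picked among the smallest p of their lists, every KO library lay above every WT library. WT3 was lowest for Ndufa1 (64.0 FPKM) and Atp5k (37.2 FPKM). Without overlap, 10 of the 36 complex I genes were higher and 4 lower, beside 11.8% higher and 10.8% lower among all tested genes. One of the lower ones, Ndufb5, measured 22.8 ± 2.67 FPKM in WT and 18.6 ± 0.782 FPKM in KO. Markers of mitochondrial mass gave a median of 0.018 over 15 genes (3 higher, 0 lower). Tomm20, an import receptor of the outer membrane, measured 84.8 ± 5.08 and 96.5 ± 4.22 FPKM. The summed level of the mass markers was 1197 to 1245 FPKM in WT and 1224 to 1286 FPKM in KO, and WT3, lowest in mitochondrial reads, had 1245 FPKM, the highest of the WT libraries.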

How the data were processed

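The authors deposited 1 table of FPKM values for 54532 genes in 6 libraries, with symbols, coordinates, biotypes and gene lengths. Per the labels' protocols, RNA came from basolateral amygdala and libraries were prepared with an mRNA kit of the SMARTer type. The build is GRCm38 (mm10), per the submitters' processing notes. Aligner, counting program, annotation release, strand setting and treatment of reads that match several places are not known from the sources used here. All sample columns were matched by name, and 0 were left unmatched. Within each library, 100% of nonzero products of FPKM and gene length fell within 0.01 of a whole multiple of 1 value, and these multiples are the reads printed. The totals implied by the deposited FPKM scale were 0.969 to 1.04 times the reads in genes.

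Members are all genes on MT. The test was limma-trend with robust moderation (limma 3.58.1, R 4.3.3) on log2(FPKM + 0.5), fitted and adjusted over all genes whose mean reached 0.5 FPKM. It was also run on simulated reads that gave every gene the same dispersion and held no outlying library. The outcome is not reported here, and such reads cannot show how the test behaves with a library like WT3. A fold on log2(FPKM + 0.5) understates changes of low genes. Sums and shares over members got no p. The alternatives tried were a filter at 5 FPKM or none, a pseudocount of 0.1 or 1, median-ratio size factors, scaling to nuclear reads, voom on recovered reads, a replicate block and leaving out each library. Alternatives for the tRNA median and for the count of tRNA genes lower in every KO library were added after seeing the data. By rule, the named genes are all mRNA and rRNA members, the 8 tRNA genes with most reads, and from each nuclear list examples among the 4 with the smallest p and a mean of at least 1 FPKM. The other 14 tRNA genes, single markers and genes singled out in the closing section fall outside that rule and were named after their values were seen. Also named by rule are chromosome 1 pseudogenes between 24.6 and 24.63 Mb. Members and lists were chosen with earlier results of these data known. Nuclear list genes were matched by symbol, and Atp5o matched 2 rows and was left out. From the lists of cell type markers, 1 gene was left out and is not reported here. The limit printed for a gene without reads is that of 3 reads, and it and the intervals reflect counting error alone.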

Additional observations from a re-analysis of the deposited data

How the results depend on the processing

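Under every alternative run, 0 mitochondrial genes passed in either direction, with lowest adjusted p-values from 0.0579 (without KO1) to 0.364 (without WT2). The median log2 difference of the mRNA genes was 0.064 to 0.11 over the other settings, and leaving out 1 library gave -0.36 to 0.37. The tRNA median was -0.93 to -0.55 over all settings. When 1 library is left out, a count of genes without overlap cannot fall, and that of tRNA genes lower in every KO library was 10 to 12 by FPKM and 9 to 11 by share. KO minus WT in the mitochondrial share of reads was -1.49 to 0.873 percentage points and in the rRNA share of mitochondrial reads -3.53 to 0.813, the latter positive only without WT3. Leaving out 1 library changed the sign of these log2 differences, none of which passed: -0.21 to 0.12 for mt-Rnr1, -0.23 to 0.10 for mt-Rnr2, -0.26 to 0.36 for mt-Nd1, -0.58 to 0.74 for mt-Nd2 and -0.20 to 0.32 for mt-Co1. For the next genes the ranges were -0.18 to 0.42 for mt-Co2, -0.10 to 1.39 for mt-Atp8, -0.46 to 0.67 for mt-Atp6, -0.27 to 0.18 for mt-Co3 and -0.36 to 0.25 for mt-Nd3. They were -1.05 to 0.088 for mt-Nd4l, -0.37 to 0.99 for mt-Nd4, -0.59 to 0.37 for mt-Nd5, -0.39 to 0.18 for mt-Nd6, -0.23 to 0.59 for mt-Cytb, -0.072 to 0.15 for mt-Tc and -0.11 to 0.94 for mt-Tp. With scaling to nuclear reads mt-Nd3 was -0.035 and mt-Nd5 -0.020, and with voom -0.032 and -0.025, against 0.011 and 0.027. The cause of these sign changes was not tested. The replicate block gave 0 passing mitochondrial genes (lowest limma adjusted p = 0.318) and a median of 0.11 for mRNA genes. The replicate numbers share only a number: deviations of same-numbered libraries correlated at -0.14 to -0.066 over 16155 genes, and 0 libraries correlated best with their own number. Under 100 reads in every library were found for 10 of the tested tRNA genes, which limits their precision.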

Other observations

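WT3 was also the lowest library for some nuclear mRNAs of the respiratory chain, singled out after their values were seen. For others, such as Cox7c and Cox6a1, it was not the lowest. Whether a low value in WT3 goes with transcript length was not tested. Cox5b, a subunit of complex IV, measured 99.9, 108 and 44.6 FPKM in WT1 to WT3 and 127, 109 and 142 in KO1 to KO3. Atp5g2, one of the genes for the ring subunit of ATP synthase, measured 38.9, 44.2 and 13.2 FPKM in WT1 to WT3 and 48.7, 44.5 and 52.8 in KO1 to KO3. Uqcr11, a small subunit of complex III, measured 111, 136 and 71.7 FPKM in WT1 to WT3 and 149, 141 and 177 in KO1 to KO3. For Uqcrfs1, the iron-sulfur subunit of complex III, the same library was the highest, at 105, 111 and 134 FPKM in WT1 to WT3 and 105, 95.1 and 94.9 in KO1 to KO3.

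The chromosome 1 gene models of the copied stretch held 3830, 7043 and 2286 reads in WT1 to WT3 and 3856, 3139 and 4317 in KO1 to KO3. WT2 was highest for Gm10925 (198 FPKM, against 30.1 to 103 FPKM in the other libraries), Gm28661 (183 against 46.4 to 77.0 FPKM) and Gm29216 (110 against 23.8 to 74.8 FPKM). For Gm28437 that library measured 44.7 FPKM, within the range of the others (28.0 to 57.7 FPKM).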
